A study of Mus musculus with 6 samples.

Results

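The chemokine ligands are the 41 genes, of 21965 in the table, whose symbols begin with Ccl, Cxcl, Xcl or Cx3cl followed by a digit. The rule goes by name and not by value, but the members and their classes were chosen with earlier results of these data known. Chemokines are small secreted proteins that bind receptors coupled to G proteins and guide leukocytes along their gradients; they are grouped by the spacing of their first cysteines. In the lung, macrophages, lymphocytes, epithelium and stroma each release their own sets, and the mixture decides which leukocytes enter and where they settle.

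RNA was read from 6 mouse libraries that the labels call lung tissue, 3 labelled Aa-flox and 3 labelled Aa-cko. The series title names alpha tocopherol, group 2 innate lymphoid cells, ferroptosis and Lkb1, so the question is what the deletion behind the label cko does to expression. The labels give neither the deleted gene, the Cre driver, the strain, the age, any allergen or tocopherol treatment, nor whether the 3 replicates of a group are separate animals, so p-values cover the spread among these 6 libraries only, and it could be technical. Each value is in FPKM, fragments scaled by gene length and by the depth of the library.

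Several facts of the libraries bear on all results. The spacing of low values placed the depth at 14.2 to 17.5 M fragments, so that 14.2 to 17.5 fragments or so make up 1 FPKM of a 1 kb gene. Stk11, which encodes LKB1, read 57.2 ± 6.28 FPKM (mean ± SD, n = 3) in the libraries labelled Aa-flox and 59.4 ± 4.95 (n = 3) in those labelled Aa-cko and showed no fall (limma adjusted p = 0.721), so every direction here rests on the labels. The lists of structural lung cells summed to less than that of T cells. The 8 epithelial markers summed to 132 to 165 FPKM in Aa-flox, most of it Scgb1a1 of club cells (125 ± 13.3, n = 3), with Sftpc, the surfactant protein C gene, at 2.23 to 4.59, while the 8 T cell markers summed to 1289 to 1550. The 6 endothelial markers summed to 32.4 to 37.2 FPKM in Aa-flox and 24.3 to 34.4 in Aa-cko, most of it Pecam1 (32.2 ± 1.99 and 26.5 ± 5.13, n = 3 each), which leukocytes and platelets also express. Of these 6, Vwf rose (1.51 ± 0.503 to 2.55 ± 0.418 FPKM, limma adjusted p = 0.0377), and Cdh5, Tek and Cldn5 stayed under 1 FPKM in every library. The 6 fibroblast markers summed to 26.9 to 32.6 FPKM in Aa-flox, led by Dcn (13.6 ± 1.61) and Col3a1 (7.95 ± 0.504), and Pdgfra and Lum stayed under 1 FPKM in every library.

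Chemokine RNA was abundant and was carried by few genes. The 41 members held 2.44 to 2.54% of the summed FPKM in the Aa-flox libraries and 2.12 to 2.24% in the Aa-cko libraries. Cxcl2, a neutrophil attractant, was the highest member in all 6 libraries and made up 44.9 to 49.6% of the members' sum, and Ccl3, a ligand of CCR1, made up 22.4 to 25.5%. Of the 41 members, 24 reached 1 FPKM in at least 3 libraries and were tested. With limma and an adjusted p under 0.05, 9 were higher in Aa-cko, 6 were lower and 9 did not pass. Against these 15 of 24 (62.5%), 42.4% of all 10849 genes tested were called, 19.2% higher and 23.2% lower. The groups did not overlap for the same 15 members, where 53.3% of all genes tested had groups that did not overlap. The 9 that rose were all placed in the myeloid class, and the 6 that fell came from all 3 classes. On the log2(FPKM + 1) scale 6 members changed at least 2-fold, 4 up (Ccl17, Cxcl9, Ccl6 and Cxcl10) and 2 down (Ccl1 and Xcl1), where 5.15% of all genes tested did. The median log2 fold change was -0.62 for the 5 lymphocyte-derived members and 0.74 for the 14 myeloid members, beside -0.05 for all genes tested. In RNA of mixed cells, fewer cells of a type and less RNA per cell cannot be told apart.

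**Figure D1:**
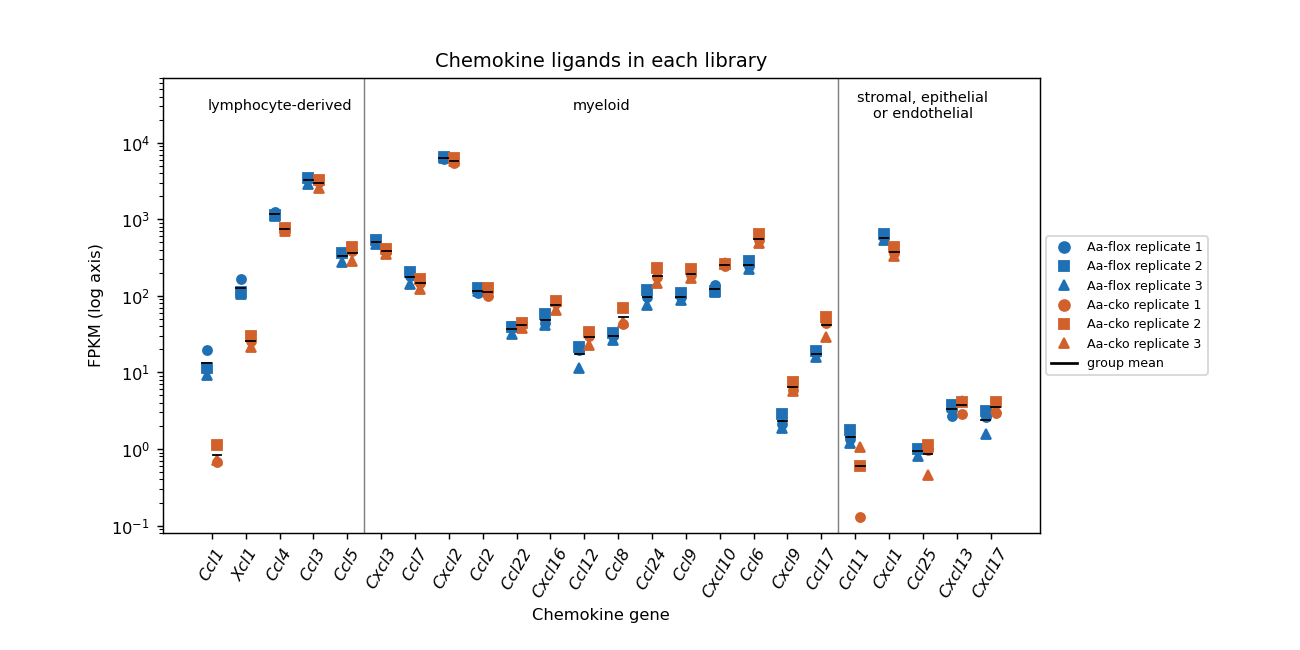
FPKM on a log axis of the 24 tested chemokine genes in each library, by class and then by log2 fold change, with symbols for replicates and black bars for group means. Cxcl2 is highest at about 6259 FPKM on average in Aa-flox, and the widest gaps between the groups are those of Ccl1 and Xcl1.

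**Figure D2:**
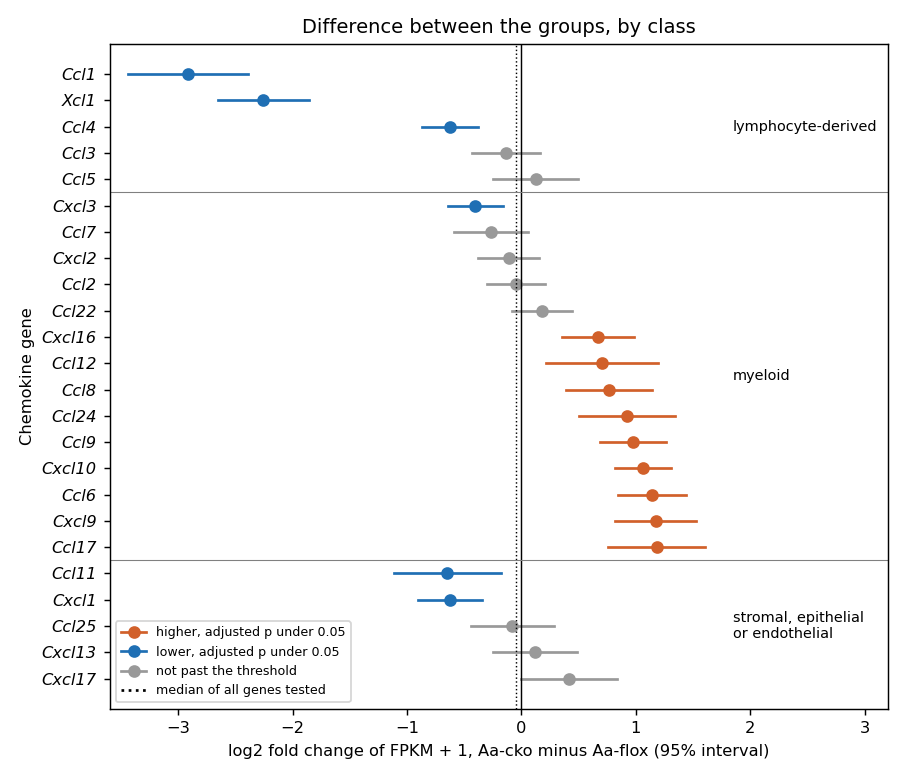
Log2 fold change of FPKM + 1, Aa-cko minus Aa-flox, with 95% intervals for the 24 tested members by class; colour gives the limma call and the dotted line is the median of all genes tested (-0.05). Ccl1 and Xcl1 lie at -2.91 and -2.26, and the 9 rises lie between 0.67 and 1.18.

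The promoters of 5 members are shown, chosen after the values were seen, so that falling and rising members can be set side by side: Ccl1 and Xcl1, the largest falls, Cxcl1 and Cxcl3, which lie in 1 run of genes and both fell, and Cxcl10, the rise with the smallest p. The sequences are from RefSeq on GRCm38.p6, 250 bases before to 50 after the start, 5′ to 3′ on the gene's strand. Capitals mark matches, on both strands, to the NFAT core GGAAA, the AP-1 motif TGANTCA, the NF-kappaB consensus, the interferon-stimulated response element and the TATA motif TATAAA, which may overlap one another.
Ccl1 (chr11:82179763-82180062, minus strand): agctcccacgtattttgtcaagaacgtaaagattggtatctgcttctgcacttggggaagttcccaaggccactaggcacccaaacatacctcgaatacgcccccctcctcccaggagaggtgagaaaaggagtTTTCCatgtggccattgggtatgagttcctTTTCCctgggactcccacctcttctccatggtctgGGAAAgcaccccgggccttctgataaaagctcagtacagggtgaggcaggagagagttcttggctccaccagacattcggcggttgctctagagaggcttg
Xcl1 (chr1:164935473-164935772, minus strand): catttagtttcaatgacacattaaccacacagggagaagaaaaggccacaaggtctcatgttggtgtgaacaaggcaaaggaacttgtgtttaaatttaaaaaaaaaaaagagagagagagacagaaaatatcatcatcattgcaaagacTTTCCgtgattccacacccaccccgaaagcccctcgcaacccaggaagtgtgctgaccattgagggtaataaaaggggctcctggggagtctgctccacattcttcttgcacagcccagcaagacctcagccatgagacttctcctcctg
Cxcl1 (chr5:90890995-90891294, plus strand): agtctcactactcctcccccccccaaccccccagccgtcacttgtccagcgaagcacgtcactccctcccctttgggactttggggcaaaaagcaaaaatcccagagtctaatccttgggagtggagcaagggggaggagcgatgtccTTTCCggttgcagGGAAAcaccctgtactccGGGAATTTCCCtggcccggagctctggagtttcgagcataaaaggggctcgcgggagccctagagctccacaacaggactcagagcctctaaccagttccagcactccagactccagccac
Cxcl3 (chr5:90785851-90786150, plus strand): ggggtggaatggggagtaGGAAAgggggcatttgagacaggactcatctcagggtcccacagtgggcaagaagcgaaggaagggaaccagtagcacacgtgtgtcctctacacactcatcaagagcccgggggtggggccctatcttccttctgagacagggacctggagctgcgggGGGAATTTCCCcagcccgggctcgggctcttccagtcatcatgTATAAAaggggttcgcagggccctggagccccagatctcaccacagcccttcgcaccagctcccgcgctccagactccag
Cxcl10 (chr5:92348840-92349139, minus strand): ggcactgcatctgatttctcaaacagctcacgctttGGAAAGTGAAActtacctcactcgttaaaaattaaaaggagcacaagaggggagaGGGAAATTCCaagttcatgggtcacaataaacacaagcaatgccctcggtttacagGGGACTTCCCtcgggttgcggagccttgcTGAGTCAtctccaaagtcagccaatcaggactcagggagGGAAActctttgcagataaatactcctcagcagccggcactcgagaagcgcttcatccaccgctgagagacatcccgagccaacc
The windows of Ccl1 and Xcl1 held NFAT cores and none of the other motifs searched, 3 in Ccl1 at 116, 86 and 51 bases before the start and 1 in Xcl1 at 100. Cxcl1 and Cxcl3 each held 2 overlapping NF-kappaB matches, which begin 71 and 70 bases before the start in Cxcl1 and 73 and 72 in Cxcl3. Cxcl10 held 2 NF-kappaB matches, an AP-1 motif and an interferon-stimulated response element at 213. NFAT cores were also in Cxcl1 (at 102, 89 and 66), Cxcl3 (232 and 68) and Cxcl10 (214, 158 and 35). Cxcl3 held a TATA motif at 30. Over all 32851 promoter windows of this length, 61.3% held an NFAT core, 7.81% an AP-1 motif, 4.51% an NF-kappaB match, 3.44% the interferon-stimulated element and 13.6% the TATA motif. Of the tested members, 16 had a window. The NFAT core was in 4 of 4 members that fell, 6 of 7 that rose and 2 of 5 that did not pass. NF-kappaB matches were in 2 of 4, 2 of 7 and 1 of 5, and the AP-1 motif in 0, 3 and 0. A match is a description of letters and not a binding site.

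Among chemokines that activated lymphocytes are known to make, Ccl1 and Xcl1 fell, Ccl4 fell less, and Ccl3 and Ccl5 did not pass. Ccl1, the ligand of CCR8 on type 2 T cells and regulatory T cells, lies on chromosome 11, on the minus strand of mm10, where its coding transcripts lie within bases 82176657 to 82179812. GENCODE also gives it a noncoding transcript that begins far upstream, at 82305690, and the promoter shown is that of the coding ones. Ccl1 read 19.7, 11.3 and 9.30 FPKM in Aa-flox replicates 1 to 3 and 0.68, 1.13 and 0.711 in Aa-cko replicates 1 to 3. The groups lay far apart, with a log2 fold change of -2.91 ± 0.24 (SE; limma adjusted p = 3.83e-05). On the linear scale the Aa-flox mean was 16.0 times the Aa-cko mean, and the Aa-cko level rests on few fragments. Ccl1 passed the filter on low values through its 3 Aa-flox libraries and 1 Aa-cko library.

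Xcl1, lymphotactin, attracts the XCR1-bearing dendritic cells that cross-present antigen and lies on chromosome 1 from 164931644 to 164935527 (minus strand). It read 167, 111 and 106 FPKM in Aa-flox and 26.1, 29.8 and 21.3 in Aa-cko. Every Aa-cko library lay under every Aa-flox library by a wide margin (log2 -2.26 ± 0.18, adjusted p = 3.58e-05). Aa-flox replicate 1 was the highest library for both Ccl1 and Xcl1. Without it both stayed past the threshold.

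Ccl4, a chemokine made by T cells, natural killer cells and macrophages, read 1242, 1127 and 1103 FPKM in Aa-flox and 778, 773 and 700.4 in Aa-cko. The groups did not overlap and the spread within each was small (log2 -0.62 ± 0.11, adjusted p = 0.00163). Ccl3, its neighbour on chromosome 11 with much the same sources, read 3377, 3483 and 2923 FPKM in Aa-flox and 3081, 3267 and 2573 in Aa-cko. Those groups overlapped (log2 -0.14, 95% interval -0.435 to 0.163, adjusted p = 0.437). Ccl5, which memory T cells and natural killer cells express, read 359, 366 and 278 FPKM in Aa-flox and 383, 432 and 287 in Aa-cko, with replicate 3 lowest in both groups. It did not pass (log2 0.12, 95% interval -0.245 to 0.493, adjusted p = 0.57).

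The markers of cells that make these ligands moved in different directions. Of 8 T cell markers 5 fell and 0 rose, and their sum was 1289 to 1550 FPKM in Aa-flox and 704 to 753 in Aa-cko, or 0.51 times as much on average. The markers fell unevenly: Cd5 from 294 to 56.6 FPKM on average, Trac from 421 to 169 and Cd6 from 137 to 47.8. Cd3e and Cd247 fell less (log2 -0.71 and -0.61). Cd3d (72.9 and 60.5 FPKM), Cd3g (183 and 171) and Cd28 (99.1 and 79.3) did not pass. The Aa-cko mean of Ccl1 was 0.063 times and that of Xcl1 0.20 times its Aa-flox mean. Of 6 natural killer cell markers 3 rose and 0 fell (sums 189 to 226 and 213 to 238 FPKM). Of 7 markers of group 2 innate lymphoid cells 4 rose and 2 fell (160 to 165 and 144 to 167). Gata3 (36.5 to 22.6 FPKM on average) and Il1rl1 (48.1 to 29.2) fell, while Rora, Il7r, Klrg1 and Il17rb rose. Of 7 mast cell markers 4 were tested, 1 rose and 1 fell (11.3 to 14.1 and 14.2 to 19.5), and Tpsab1 and Fcer1a stayed under 1 FPKM everywhere. None of the markers of these 4 lists stood at 0 in all libraries, and their part in the falls was not tested.

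Ccl6, Ccl9 and Ccl24 rose, and Ccl11, which shares its receptor with Ccl24, fell. Ccl6 and Ccl9, mouse ligands of CCR1 that macrophages and other myeloid cells release, lie side by side on chromosome 11 and rose together. Ccl6 read 246, 284 and 228 FPKM in Aa-flox and 538, 647 and 491 in Aa-cko (log2 1.14 ± 0.13, adjusted p = 0.000212). Ccl9 read 95.7, 109.9 and 88.0 FPKM in Aa-flox and 187, 226 and 169 in Aa-cko (log2 0.98 ± 0.13, adjusted p = 0.000414). In both genes the lowest Aa-cko library was well above the highest Aa-flox library. Ccl24, eotaxin-2, a CCR3 ligand of alternatively activated macrophages, read 95.3, 119.5 and 75.1 FPKM in Aa-flox and 177, 229 and 147 in Aa-cko (log2 0.92 ± 0.19, adjusted p = 0.00382). The groups of Ccl24 did not overlap, although the spread within each was larger.

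Ccl11, eotaxin-1, which fibroblasts and epithelium make and which binds the same receptor as Ccl24, was near the limit of detection. It read 1.37, 1.75 and 1.21 FPKM in Aa-flox and 0.129, 0.602 and 1.07 in Aa-cko, and the Aa-cko libraries differed widely. Its fall (log2 -0.65 ± 0.21, adjusted p = 0.0308) rests on few fragments, and it entered the test through 3 Aa-flox libraries and 1 Aa-cko library. The call ended without Aa-cko replicate 1 (log2 -0.42, adjusted p = 0.108), Aa-flox replicate 1 (adjusted p = 0.07) or Aa-flox replicate 2 (adjusted p = 0.101), and with no filter (adjusted p = 0.0743). Of the 6 fibroblast markers 4 were tested and 0 passed, and their sum was 26.9 to 32.6 FPKM in Aa-flox and 25.5 to 30.5 in Aa-cko.

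Ligands of CCR4 and CCR8 that dendritic cells and macrophages make did not move as one. Ccl17, which attracts CCR4-bearing type 2 T cells, read 17.7, 19.1 and 15.8 FPKM in Aa-flox and 44.5, 53.0 and 29.0 in Aa-cko. It rose by log2 1.18 ± 0.19 (adjusted p = 0.00114), with replicate 3 lowest in both groups. Ccl22, the other CCR4 ligand, lies on chromosome 8 in the same run of genes and read 40.4, 39.1 and 31.9 FPKM in Aa-flox and 43.9, 44.0 and 38.5 in Aa-cko. It did not pass (log2 0.18, 95% interval -0.079 to 0.442, adjusted p = 0.235). Ccl8, which in the mouse acts on CCR8 as Ccl1 does, read 29.6, 33.0 and 26.9 FPKM in Aa-flox and 43.1, 68.8 and 45.5 in Aa-cko (log2 0.77 ± 0.17, adjusted p = 0.00526). The ligands Ccl1 and Ccl8 of that receptor thus changed in opposite directions, and Ccl8 had more than the FPKM of Ccl1 in every library.

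The monocyte attractants that bind CCR2 were also divided. Ccl2 (MCP-1) read 109.6, 125 and 114 FPKM in Aa-flox and 100.1, 128 and 111 in Aa-cko, with overlapping groups (log2 -0.05, 95% interval -0.299 to 0.207, adjusted p = 0.766). Ccl7 (MCP-3) read 180, 202 and 145 FPKM in Aa-flox and 147, 165 and 125 in Aa-cko, again with overlap (log2 -0.27, 95% interval -0.589 to 0.058, adjusted p = 0.166). Ccl12, the mouse MCP-5, read 19.8, 21.4 and 11.6 FPKM in Aa-flox and 29.8, 34.0 and 22.6 in Aa-cko and rose (log2 0.70 ± 0.22, adjusted p = 0.0266). The gap between the groups of Ccl12 was narrow. Its call ended without Aa-cko replicate 1 (adjusted p = 0.0835) or 2 (0.063), without Aa-flox replicate 3 (log2 0.45, adjusted p = 0.0674), and with no filter (adjusted p = 0.0785).

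Cxcl9 and Cxcl10, interferon-induced ligands of CXCR3, rose in all Aa-cko libraries. Cxcl10 lies on chromosome 5 from 92346638 to 92348889 (minus strand) and read 139, 116 and 113 FPKM in Aa-flox and 243, 258 and 266 in Aa-cko. Its Aa-cko libraries were closely spaced, and the log2 fold change was 1.06 ± 0.11 (adjusted p = 0.000115). Cxcl9 read 2.11, 2.89 and 1.88 FPKM in Aa-flox and 5.95, 7.48 and 5.77 in Aa-cko (log2 1.17 ± 0.16, adjusted p = 0.000423), a 2.79-fold ratio of mean FPKM. Ifng, which encodes interferon gamma, the classical inducer of Cxcl9, was added after its values were seen. It read 112, 59.0 and 57.7 FPKM in Aa-flox and 19.7, 17.8 and 16.8 in Aa-cko (log2 -1.95, adjusted p = 0.000189), so it was lower in the libraries where Cxcl9 and Cxcl10 were higher. Cxcl16, a membrane-bound ligand of CXCR6 made by macrophages and dendritic cells, read 44.5, 58.0 and 42.1 FPKM in Aa-flox and 80.2, 84.5 and 65.7 in Aa-cko (log2 0.67 ± 0.14, adjusted p = 0.00457).

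All 8 alveolar macrophage markers and all 8 markers of monocytes and interstitial macrophages rose in the same libraries. Their sums were 2520 to 2949 and 1420 to 1697 FPKM in Aa-flox and 6054 to 8200 and 2158 to 2550 in Aa-cko, or 2.46 and 1.51 times as much on average. Chil3 (2551 to 6325 FPKM on average) made up most of the alveolar sum, and Cd14 (1108 to 1430) most of the other. The median log2 fold change was 1.13 for the alveolar list and 1.17 for the other, in which Cd14 had 0.37. The 9 members that rose had ratios of mean FPKM between 1.59 (Cxcl16) and 2.79 (Cxcl9). Of 8 dendritic cell markers 7 were tested and 3 rose (sums 600.3 to 672 and 1188 to 1396). H2-Aa (507 to 1077 FPKM on average) and Ccr7 (106 to 213) rose and made up most of the sums. Cd209a also rose, but reached 1 FPKM in the Aa-cko libraries alone (0.28 to 0.731 and 1.32 to 1.60). It thus had to be higher there to be tested. Flt3, Zbtb46, Xcr1 and Fscn1 did not pass. Of 5 eosinophil markers 4 were tested and 3 rose, Siglecf, Ear1 and Ccr3 (sums 21.0 to 31.5 and 49.6 to 79.0), and of 6 B cell markers 6 rose (65.5 to 88.1 and 156 to 196). None of these markers stood at 0 in all libraries, and their part in the rises was not tested.

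The neutrophil attractants Cxcl1, Cxcl2 and Cxcl3 of the CXCR2 group did not rise, nor did Ccl2, Ccl7 and Ccl22 of the myeloid class. Cxcl1 is placed in the stromal, epithelial or endothelial class. Cxcl2 read 6095, 6454 and 6227 FPKM in Aa-flox and 5421, 6285 and 5691 in Aa-cko, with overlapping groups (log2 -0.11, 95% interval -0.377 to 0.153, adjusted p = 0.469). Cxcl1, which epithelium and stroma as well as macrophages make, read 561, 639 and 533 FPKM in Aa-flox and 359, 429 and 336 in Aa-cko. Every Aa-cko library was lower (log2 -0.63 ± 0.13, adjusted p = 0.00336). Cxcl3 read 504, 543 and 469 FPKM in Aa-flox and 376, 412 and 357 in Aa-cko and fell by a smaller amount (log2 -0.40 ± 0.11, adjusted p = 0.0139). The call of Cxcl3 ended under upper quartile scaling (log2 -0.31, adjusted p = 0.0609), without Aa-cko replicate 1 (adjusted p = 0.063) and without Aa-flox replicate 2 (adjusted p = 0.065). Cxcl1 kept its call in all these settings. Of 7 neutrophil markers 5 rose and 0 fell (sums 2715 to 3452 FPKM in Aa-flox and 3502 to 5149 in Aa-cko). Of 8 epithelial markers 2 rose, Sftpb and Krt8, and 1 fell (132 to 165 and 147 to 194). The fall was that of Epcam (10.2 to 4.40 FPKM on average, log2 -1.06, limma adjusted p = 0.000441). Most of the sums was Scgb1a1, which did not pass.

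The remaining tested members were low and did not pass. Cxcl13, the B cell attractant of follicles, read 2.73 to 3.81 FPKM in Aa-flox and 2.86 to 4.18 in Aa-cko. Cxcl17, a chemokine of mucosal epithelium, read 1.58 to 3.12 FPKM in Aa-flox and 2.94 to 4.13 in Aa-cko (log2 0.41, 95% interval -0.00536 to 0.832, adjusted p = 0.102). Ccl25, the thymic and intestinal ligand of CCR9, read 1.01, 1.01 and 0.801 FPKM in Aa-flox and 0.985, 1.12 and 0.458 in Aa-cko.

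Of the 17 members under the filter, 13 never reached 1 FPKM and 3 of these (Ccl26, Ccl21d and Ccl27b) were listed at 0 in all libraries. The 4 that reached 1 FPKM somewhere were Cxcl12, the stromal ligand of CXCR4 (0.463 to 1.13 FPKM over all libraries), Cx3cl1, the membrane-bound fractalkine of endothelium (0.375 to 1.23), Cxcl14, an epithelial chemokine (0.292 to 1.18), and Cxcl15, the lung epithelial chemokine lungkine (0.26 to 1.32). The lymph node ligands of CCR7, Ccl19 and Ccl21a, reached at most 0.409 and 0.56 FPKM. Ccl20, the CCR6 ligand, reached 0.596 and Cxcl5, a neutrophil attractant of alveolar epithelium, 0.508. Ccl21b and Ccl21e had identical values in every library; the Ccl21 and Ccl27 genes are near-identical copies on chromosome 4, and how shared reads were counted is not given in the sources used here.

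Neighbouring chemokine genes differed in direction. On chromosome 11 the 6 genes Ccl2, Ccl7, Ccl11, Ccl12, Ccl8 and Ccl1 lie between 82035571 and 82305690; 2 rose, 2 fell and 2 did not pass. The 5 genes Ccl5, Ccl9, Ccl6, Ccl3 and Ccl4 lie between 83525778 and 83664683, where the inner pair Ccl9 and Ccl6 rose, Ccl4 fell, and Ccl5 and Ccl3 did not pass. On chromosome 5 the run of Cxcl5, Cxcl3, Cxcl15, Cxcl1 and Cxcl2 between 90759360 and 90905938 held 2 falls among 3 tested genes, whereas Cxcl9 and Cxcl10, between 92321347 and 92348889, both rose. The annotation puts genes on the opposite strand over part or all of the tested members Xcl1, Ccl2, Ccl6, Ccl25, Cxcl10, Cxcl16 and Cxcl17. The same holds for Ccl19, Ccl21a, Ccl21d, Ccl27a and Cxcl15, which were not tested. Whether counting used strand is not given in the sources used here.

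**Figure D3:**
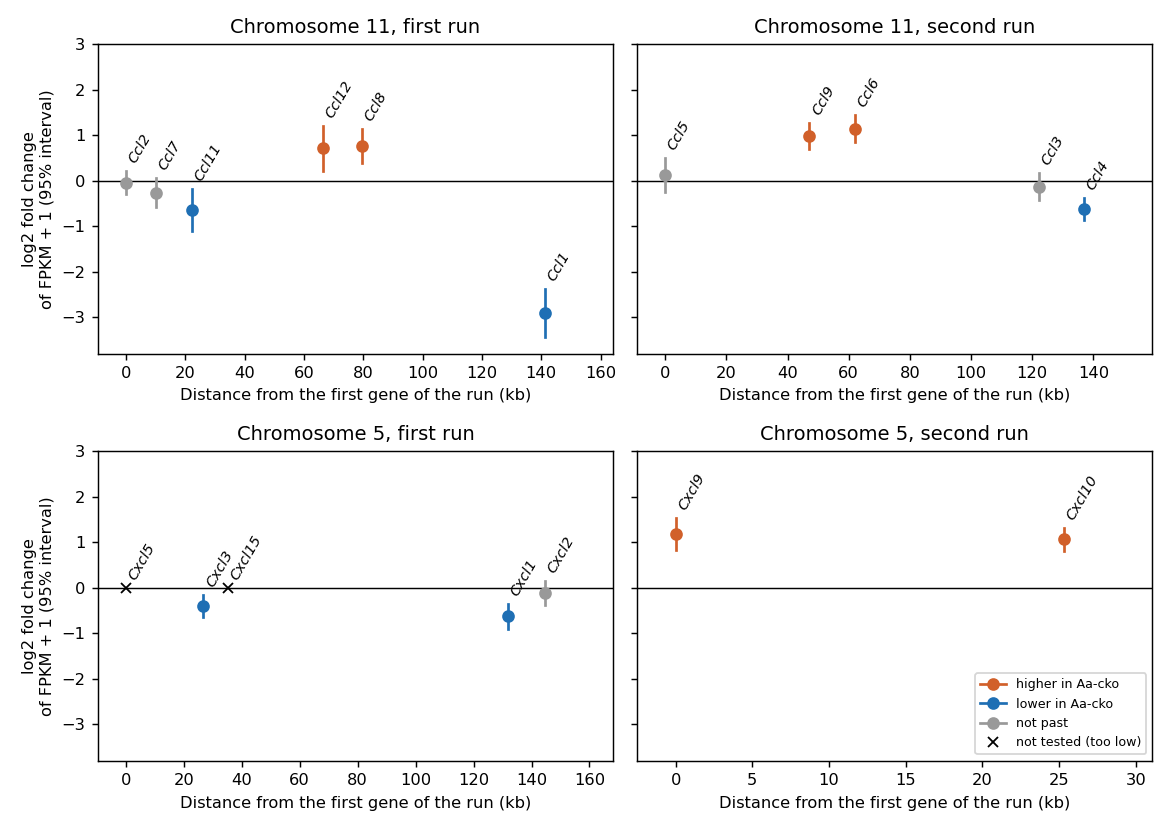
Log2 fold change of FPKM + 1 with 95% intervals against the distance in kb of each gene's lowest coordinate from the first gene of its run, for 2 runs on chromosome 11 and 2 on chromosome 5. Within each chromosome 11 run, rising genes stand between genes that fell or did not pass.

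The receptors that read these ligands did not follow them gene by gene. Of 17 signalling chemokine receptors 15 were tested, 7 rose (Ccr2, Ccr3, Ccr7, Cxcr1, Cxcr2, Cxcr4 and Cxcr5), 3 fell (Ccr4, Ccr9 and Cxcr6) and 5 did not pass (Ccr1, Ccr6, Ccr8, Cxcr3 and Xcr1). Over all genes tested 42.4% were called, 19.2% higher and 23.2% lower. Ccr10 and Cx3cr1 stayed under 1 FPKM in every library. Cxcr1 read 0.492 to 0.876 FPKM in Aa-flox and 1.21 to 1.68 in Aa-cko, so it passed the filter through the Aa-cko libraries alone, where it is high, and it was not tested without any 1 of them. Ccr4 fell from 23.5 ± 5.08 to 9.51 ± 3.0 FPKM (n = 3 each, log2 -1.24, limma adjusted p = 0.00172) while its ligand Ccl17 rose. Cxcr6 fell (log2 -0.40, adjusted p = 0.00833) while Cxcl16 rose. Cxcr2, the receptor of neutrophils, rose (log2 0.72, adjusted p = 0.00146) while Cxcl1 and Cxcl3 fell. Ccr2 and Ccl12, and Ccr3 and Ccl24, rose together (receptors log2 0.53 and 0.45, adjusted p = 0.00598 and 0.0371). The call of Ccr3 ended without any 1 library except Aa-cko replicate 3 (adjusted p = 0.0639 to 0.114) and with no filter (0.0667), and that of Cxcr1 without Aa-flox replicate 1 (adjusted p = 0.0691). Ccr8, the receptor of Ccl1, read 19.3 ± 4.19 and 21.5 ± 4.35 FPKM (adjusted p = 0.5), and Xcr1, the receptor of Xcl1, 4.44 ± 0.795 and 3.44 ± 0.338 (adjusted p = 0.147); neither passed. Cxcr3, which binds Cxcl9 and Cxcl10, did not pass either (log2 -0.22, adjusted p = 0.23). Ccr1, a receptor of Ccl6 and Ccl9, averaged 156 ± 6.25 FPKM (n = 3) without the cko label and 179 ± 8.79 (n = 3) with it, and did not pass, although the groups did not overlap (log2 0.20, 95% interval -0.0109 to 0.407, adjusted p = 0.115). Ccr9 had the largest fall of any receptor listed (log2 -2.42, adjusted p = 1.21e-05), and its ligand Ccl25 was near 1 FPKM in both groups.

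**Figure D4:**
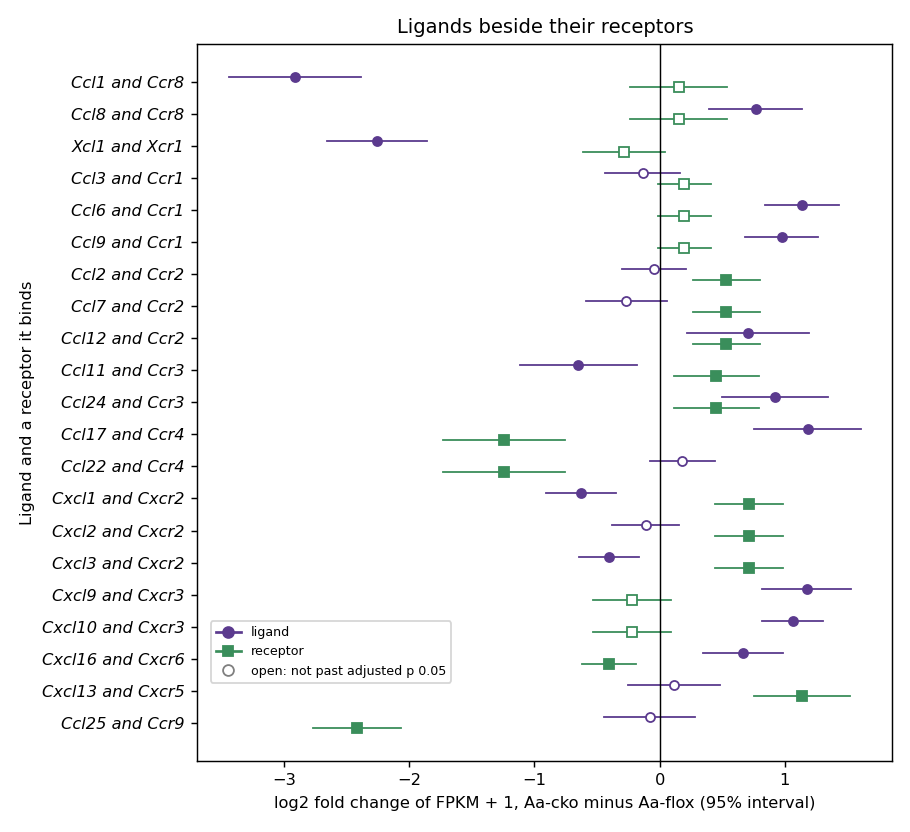
Log2 fold change of FPKM + 1 with 95% intervals for 21 pairs of a ligand and a receptor it binds, circles for ligands and squares for receptors; open symbols did not pass. Ccl17 and Cxcl16 lie above 0 with their receptors Ccr4 and Cxcr6 below, and Cxcl1 and Cxcl3 lie below 0 with Cxcr2 above.

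Genes that clear, trim or relay chemokine signals were also listed. Their counts stand beside the 42.4% of all genes tested that were called. Of 5 atypical receptors only Ccrl2, which binds chemerin and gives no G protein signal, was tested. It rose from 581 ± 44.7 to 756 ± 47.3 FPKM (log2 0.38, adjusted p = 0.0189; 0.0628 to 0.0804 without Aa-cko replicate 1 or Aa-flox replicate 2 or 3), while Ackr1 to Ackr4 stayed under 1 FPKM in every library. Of 6 proteases that process chemokines, Mmp8, Mmp9 and Mmp12 rose (log2 0.49, 0.44 and 0.68; adjusted p = 0.00624, 0.00545 and 0.00192), and the other 3 did not pass. Mmp8 also stands in the neutrophil list. Of 11 signalling genes below the receptors, Rgs1, which damps G protein signals, rose from 294 ± 32.2 to 594 ± 12.3 FPKM (log2 1.02, adjusted p = 0.000142). Gnai3, an inhibitory G protein subunit, and Pik3cg, the phosphoinositide kinase of chemotaxis, fell (log2 -0.45 and -0.70, adjusted p = 0.0337 and 0.0109). The other 8 did not pass, so the share called of these 11 was below that over all genes. The call of Gnai3 ended under upper quartile and median of ratios scaling (adjusted p = 0.0694 and 0.054), with no filter (0.0829) and without any 1 of 4 libraries (0.0639 to 0.122), Aa-cko replicates 1 and 2 and Aa-flox replicates 2 and 3. The platelet chemokines Pf4 and Ppbp, which the symbol rule leaves out, did not pass (log2 0.43 and 0.20; adjusted p = 0.0856 and 0.417); without Aa-cko replicate 3, Pf4 passed (adjusted p = 0.0323).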

How the data were processed

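The authors deposited 1 table of FPKM values for 21965 genes in 6 libraries; per the labels' protocols a column kit gave total RNA and a SMARTer mRNA kit the libraries. Per the submitters' processing notes the reads were placed on mm10; no aligner or quantifier is given in the sources used here. Columns were matched to libraries by name. Depth was estimated from whole-fragment steps of low values, searched from 4 to 26 M fragments; 43.1 to 46.7% of held-out values were whole within 0.1 fragment, against 20% by chance, so no count test was run.

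The whole table was fitted by limma 3.58.1 (R 4.3.3) as log2(FPKM + 1), with trend and robust moderation and group as its single term, for 10849 genes that reached 1 FPKM in 3 or more libraries, two-sided, adjusted by Benjamini and Hochberg. The pseudocount makes log2 fold changes of low genes too small. Steps were tested on simulated data. Positions are from GENCODE M21 (mm10), promoters from RefSeq (28 members matched); tables and plots used Python 3.11.15, pandas 2.3.3 and matplotlib 3.10.9.

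Members, classes and lists were chosen with earlier results of these data known; classes give usual main sources, and 4 members had none. All members are accounted for; every tested one is named, and of pathway lists all called receptors, receptors of called ligands and up to 4 other genes with the smallest p. Another receptor was left out of its list and is not reported here.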

Additional observations from a re-analysis of the deposited data

How the results depend on the processing

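Of the 15 called members, 12 kept their call and direction in all 16 alternative settings, which covered scaling, pseudocounts, filters, moderation, an adjusted p of 0.01, a block and leaving out each library; Ccl12, Cxcl3 and Ccl11 did not, and no called member changed sign. Over all genes, calls fell to 1269 higher and 1479 lower at an adjusted p of 0.01. The split of calls was 45.3% higher as deposited and 55.6% higher under upper quartile scaling (2485 higher, 1987 lower). Myeloid members that fell numbered 1 (Cxcl3), and 0 under upper quartile scaling and at an adjusted p of 0.01. Stromal members that fell numbered 2, and 1 with no filter, with a filter at 5 FPKM and at an adjusted p of 0.01. With no filter 2 stromal members rose, Cxcl14 and Cxcl15 (adjusted p = 0.0326 and 0.0412). Leaving out single libraries gave 0 to 1 myeloid and 1 to 2 stromal members lower; the cause was not tested. Same-numbered libraries did not deviate together in every pair (r = -0.018, 0.188 and 0.522). With 3 libraries a group these values cannot settle whether the numbers pair the libraries, and the main fit left pairing out. Aa-flox replicate 1 correlated best with Aa-cko replicate 2 (r = 0.365). With the replicate block 2451 genes were higher and 3058 lower, against 2087 and 2515 in the main fit. Under the block 2 myeloid members fell (Ccl7 added, limma adjusted p = 0.0164) and 1 stromal member rose (Cxcl17, adjusted p = 0.044). Outside the members, Pf4 passed (adjusted p = 0.00675). Depth limits the members under 1 FPKM, and 3 libraries a group limit the precision.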

Other observations

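Ratios of neighbouring members within a library do not depend on scaling; 5 were taken after the values were seen. Ccl4 had 0.356 ± 0.0286 times the FPKM of Ccl3 (mean ± SD, n = 3) in Aa-flox and 0.254 ± 0.0179 (n = 3) in Aa-cko, and Cxcl1 had 0.0922 ± 0.00667 and 0.0645 ± 0.00493 times that of Cxcl2. Cxcl3 to Cxcl2 stood at 0.0807 ± 0.00474 and 0.0659 ± 0.00328, and Ccl17 to Ccl22 at 0.474 ± 0.0308 and 0.991 ± 0.226. Ccl6 to Ccl9 was nearly constant among replicates, at 2.57, 2.58 and 2.59 in Aa-flox and 2.87, 2.86 and 2.91 in Aa-cko. In all 5 the groups did not overlap, and each had exact permutation p = 0.1, two-sided, the smallest that 3 against 3 allows, and 0.1 after adjustment over the 5. Every pair but Ccl6 and Ccl9 set a called member beside one that did not pass. Picked on these values, the ratios give no support beyond the values of the genes themselves.

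Replicate 2 was the highest Aa-cko library for 20 of the 24 tested members and the highest Aa-flox library for 18. It also had the largest summed FPKM over all genes in each group, 607447 in Aa-cko and 547058 in Aa-flox.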
